A study of Sus scrofa with 6 samples.

Results

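The solute carriers are membrane proteins that move sugars, amino acids, organic acids, nucleotides and ions across the plasma membrane and across the membranes of organelles. Their genes were taken as all probe sets with 1 platform gene symbol that starts with SLC followed by a digit. SLC2A4 and SLC25A20 were left out, and where a gene had more than 1 probe set the brightest on average stood for it. This gave 172 probe sets and 118 genes, of 23999 probe sets and 6765 named genes in all. Of the 118 genes, 79 passed the filter on dim probe sets, which kept those with a mean log2 intensity in the upper 60% of the table, and 39 did not. The symbol rule also took in SLC2A4RG, SLC9A3R1 and SLC9A3R2, which encode a regulator and scaffold proteins and not carriers.

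RNA came from the longissimus dorsi, the long back muscle, of 6 boars killed at 150 days of age. The control samples were 3 Large White boars, the others 3 Northeastern Indigenous boars, and both breeds had the same feed and housing per the labels. No treatment or genetic change is named in the labels. Total RNA of each boar was read on its own Affymetrix porcine array, and the labels call the samples biological replicates.

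In muscle, glucose enters fibres through facilitative carriers of the SLC2 family, and lactate made by glycolysis leaves through carriers of the SLC16 family. Amino acids use many families, which differ in whether they exchange, cotransport sodium or need a partner chain. The SLC25 family sits mostly in the inner mitochondrial membrane, where it trades ADP for ATP, brings in phosphate and shuttles metabolites between the matrix and the cytosol. These carriers set which substrates a fibre or a fat cell can use.

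The arrays were not alike within the Large White breed. Of 10 adipocyte markers, 7 were measured, and their summed intensity ran from 6707 to 50028 on the Large White arrays and from 5981 to 9050 on the Northeastern Indigenous arrays. As deviations from the mean of the Northeastern Indigenous arrays, in log2 units, their medians were 5.65 on array 1 of Large White, 4.51 on array 3 and -0.12 on array 2. For 13 of 15 sarcomere markers of muscle the same medians were -4.40, -0.46 and -0.04, and the summed intensity ran from 61979 to 298697 in Large White and from 302133 to 343229 in Northeastern Indigenous boars. The 11 leukocyte markers kept by the filter, of 16 listed, stood at 2.31, 2.32 and 0.74, and their summed intensity did not overlap between breeds, at 9004.5 to 30426 against 2821 to 5637. No marker was listed at 0 on any array. In RNA from whole tissue, fewer cells of a type and less RNA per cell cannot be told apart. The part these marker levels play in the carrier results below was not tested, so the carriers that matter most are also given against Large White replicate 2 by itself. On that array the adipocyte and sarcomere medians were near 0 but the leukocyte median was not. Fibroblast markers, 6 of 8 measured, stood at 1.93, 1.37 and 0.35 on Large White arrays 1, 3 and 2, with 5 of the 6 lower in Northeastern Indigenous boars and 4 at an unadjusted p under 0.05. The 1 nerve marker measured, of 4, stood at 1.69, 1.53 and 0.32.

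Across the family, carrier genes differed between the breeds about as often as other genes did. All values are quantile-normalized log2 intensities, and a difference is Northeastern Indigenous minus Large White. A gene was called at a limma Benjamini-Hochberg adjusted p under 0.05 over 14399 probe sets, which 0 of the 79 carriers reached, against 0% of all probe sets, with a smallest adjusted p of 0.224 among the carriers. At an unadjusted p under 0.05 there were 17 carriers, 11 higher and 6 lower in Northeastern Indigenous boars. That is 21.5% of the 79, beside 20.8% of the 5438 named genes tested (9.42% higher and 11.4% lower). The breeds did not overlap in 23 carriers, or 29.1%, beside 28.3% of all named genes, with 14 higher and 9 lower (15.9% and 12.3% of all named genes). The median difference of the 79 was 0.16 and that of all named genes 0.09. A positive difference was found in 43 carriers and in 54.7% of named genes. Neither share of carriers stood far from the background.

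The within-breed spread was unequal. The SD was larger in Large White than in Northeastern Indigenous boars for 57 of the 79 carriers, as for 4024 of the 5438 named genes. In 59 carriers the Large White replicate 3 value lay between those of replicates 1 and 2, which is 74.7% of carriers beside 65.2% of named genes. Replicates 1 and 3 of Large White both lay above the Northeastern Indigenous range, with replicate 2 not above it, in 16 carriers, and both below it with replicate 2 not below in another 16. Each is 20.3% of the carriers, beside 16.9% of named genes for the first pattern and 21.1% for the second. Without Large White replicate 2 the same fit called 32 carriers, 20 higher and 12 lower in Northeastern Indigenous boars, along with 4421 of 14399 probe sets. Those calls set the 2 Large White arrays with bright adipocyte markers against the Northeastern Indigenous arrays. Without Large White replicates 1 and 3 together a single Large White array was left, so only differences are given for that setting.

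**Figure D1:**
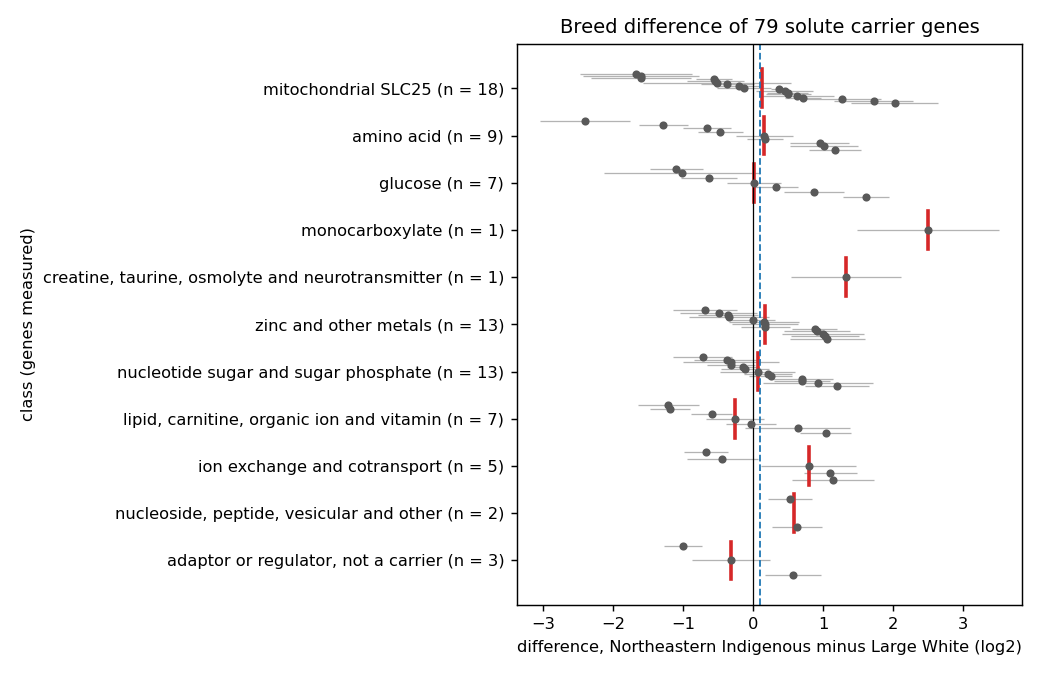
Each point is 1 of 79 measured genes, at its difference between breeds on the log2 scale with the SE from limma, in rows by class. Red bars are class medians and the dashed line is the median of all named genes at 0.09; most classes hold genes on both sides of 0, and only the classes with 1 or 2 measured genes lie wholly on the positive side.

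Mitochondrial SLC25 carriers split into members that were brighter and members that were dimmer in Northeastern Indigenous boars. Of 20 genes 18 were measured, 9 with a positive and 9 with a negative difference, and their median was 0.12. At an unadjusted p under 0.05 there were 4, all positive (SLC25A12, SLC25A3, SLC25A11 and SLC25A46), and 0 were called. The breeds did not overlap in 7, of which 6 were higher in Northeastern Indigenous boars. These are shares of 22.2% and 38.9% of the 18, beside 20.8% and 28.3% of all named genes (9.42% and 15.9% higher in Northeastern Indigenous boars). Against Large White replicate 2 alone, the difference was positive in 15 of the 18 and its median was 0.32. Over all named genes the median was -0.00 and 2690 of 5438 were positive. That contrast rests on a single Large White boar, and its genes are not replicates.

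The ADP/ATP exchangers are paralogues that hand ATP from the matrix to the cytosol. SLC25A4 is the main form in heart and skeletal muscle, SLC25A5 is the form of dividing and non-muscle cells, and SLC25A6 is made in most tissues. SLC25A4 (NCBI Gene 100517196) read 11.98, 14.30 and 13.94 on Large White replicates 1, 2 and 3 and 14.67, 14.61 and 14.74 on the Northeastern Indigenous arrays. The breeds did not overlap, and Large White replicate 1 was far below every other array. Its difference was 1.27 ± 0.56 (SE; limma adjusted p = 0.271), 0.56 without Large White replicate 1 and 0.38 against replicate 2 alone. SLC25A5 ran the other way. Its Large White values were 12.36, 9.26 and 11.02, and those of Northeastern Indigenous boars 9.11, 9.24 and 9.49. Replicates 1 and 3 of Large White were high, and replicate 2 lay inside the Northeastern Indigenous range. The difference of -1.60 ± 0.71 (SE; limma adjusted p = 0.274) was -0.86 without Large White replicate 1 and 0.02 against replicate 2. SLC25A6 took the same order over the Large White arrays (13.30, 11.72 and 12.75), against 11.71, 12.35 and 12.09, with a difference of -0.54 ± 0.41 (SE; limma adjusted p = 0.446). That value was -0.19 without Large White replicate 1, -0.18 with arrays centred on their medians and 0.33 against replicate 2. On Large White replicate 1, where sarcomere markers were lowest and adipocyte markers highest, the muscle exchanger was thus at its lowest and the other forms were at their highest. Near-identical stretches of these paralogues could share signal on an array, and the probe sequences were not used here.

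Phosphate for ATP synthesis enters through SLC25A3. It read 14.38, 14.41 and 14.30 in Large White and 14.71, 14.73 and 14.76 in Northeastern Indigenous boars, with no overlap. The difference was 0.37 ± 0.11 (SE; limma adjusted p = 0.224), and leaving out any 1 array gave 0.34 to 0.40. Its size rested on scaling, at 0.70 with the deposited scale and 0.84 with arrays centred on their medians. The limma unadjusted p was 0.0135 with the filter and 0.0965 in the fit without it. A second probe set of SLC25A3 differed by 0.55 ± 0.27 (SE; limma unadjusted p = 0.0828).

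SLC25A12 and SLC25A11 are the aspartate/glutamate and oxoglutarate/malate carriers of the malate-aspartate shuttle, which moves reducing equivalents from cytosolic glycolysis into the matrix. SLC25A12 (NCBI Gene 100524283) read 8.90, 11.55 and 10.67 on the Large White arrays and 12.42, 12.36 and 12.40 on the Northeastern Indigenous arrays. All 3 Large White arrays were below, in the order of the sarcomere markers, and the Northeastern Indigenous values lay within an SD of 0.03. Replicate 3 lay between replicates 1 and 2 of Large White in 65.2% of named genes. The difference was 2.02 ± 0.62 (SE; limma adjusted p = 0.224), with 1.28 after leaving out Large White replicate 1 and 0.84 against replicate 2 alone. For SLC25A11 the Large White values were 7.74, 9.85 and 7.86 and the Northeastern Indigenous values 10.08, 10.09 and 10.44. Here Large White replicates 1 and 3 were low and replicate 2 lay just under the Northeastern Indigenous range. It differed by 1.72 ± 0.57 (SE; limma adjusted p = 0.231), and by 0.35 against replicate 2.

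Carriers with high values on Large White replicates 1 and 3 included that of citrate. SLC25A1 exports citrate from the matrix, where it can feed fatty acid and sterol synthesis. It read 11.88, 8.24 and 10.09 in Large White and 8.38, 8.80 and 8.20 in Northeastern Indigenous boars, so that Large White replicate 2 was inside the range of the other breed. Its difference was -1.61 ± 0.83 (SE; limma adjusted p = 0.314), -0.70 without Large White replicate 1 and 0.23 against replicate 2. SLC25A17, a carrier of cofactors in peroxisomes, read 12.78, 9.35 and 11.52 against 9.98, 9.25 and 9.39, a difference of -1.68 ± 0.80 (SE). Without Large White replicate 1 the SLC25A17 difference was -0.90, without replicate 2 it was -2.61, and against replicate 2 alone 0.19. SLC25A33, a carrier of pyrimidine nucleotides, read 10.87, 6.33 and 8.88 against 8.53, 7.33 and 8.66. For SLC25A33 the spread within Large White was larger than any gap between the breeds, and its difference of -0.52 turned to 0.57 without Large White replicate 1. The adipocyte, leukocyte, fibroblast and nerve marker lists were all high on the same 2 arrays as these genes.

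The remaining SLC25 genes differed by less than 1 log2 unit. SLC25A46, a protein of the outer membrane that takes part in mitochondrial fusion and fission, read 6.89, 7.23 and 6.91 in Large White and 7.86, 7.56 and 7.73 in Northeastern Indigenous boars. Its breeds did not overlap, and it differed by 0.71 ± 0.25 (SE; limma adjusted p = 0.235). By the brightest probe set, the iron carrier SLC25A37 (0.49 ± 0.29, SE) was higher and the glycine carrier of haem synthesis SLC25A38 (-0.56 ± 0.26) lower on every Northeastern Indigenous array. A second probe set of each gene overlapped between the breeds. That of SLC25A37 differed by 0.34 ± 0.30 (SE), and that of SLC25A38, below the filter, by -0.83. SLC25A39, the glutathione carrier, differed by 0.50 ± 0.32 with overlap. SLC25A36 (-0.37), SLC25A24 (-0.21), SLC25A14 (-0.13), SLC25A21 (0.45) and SLC25A30 (0.63) also overlapped. SLC25A48 and SLC25A51 were too dim to test.

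**Figure D2:**
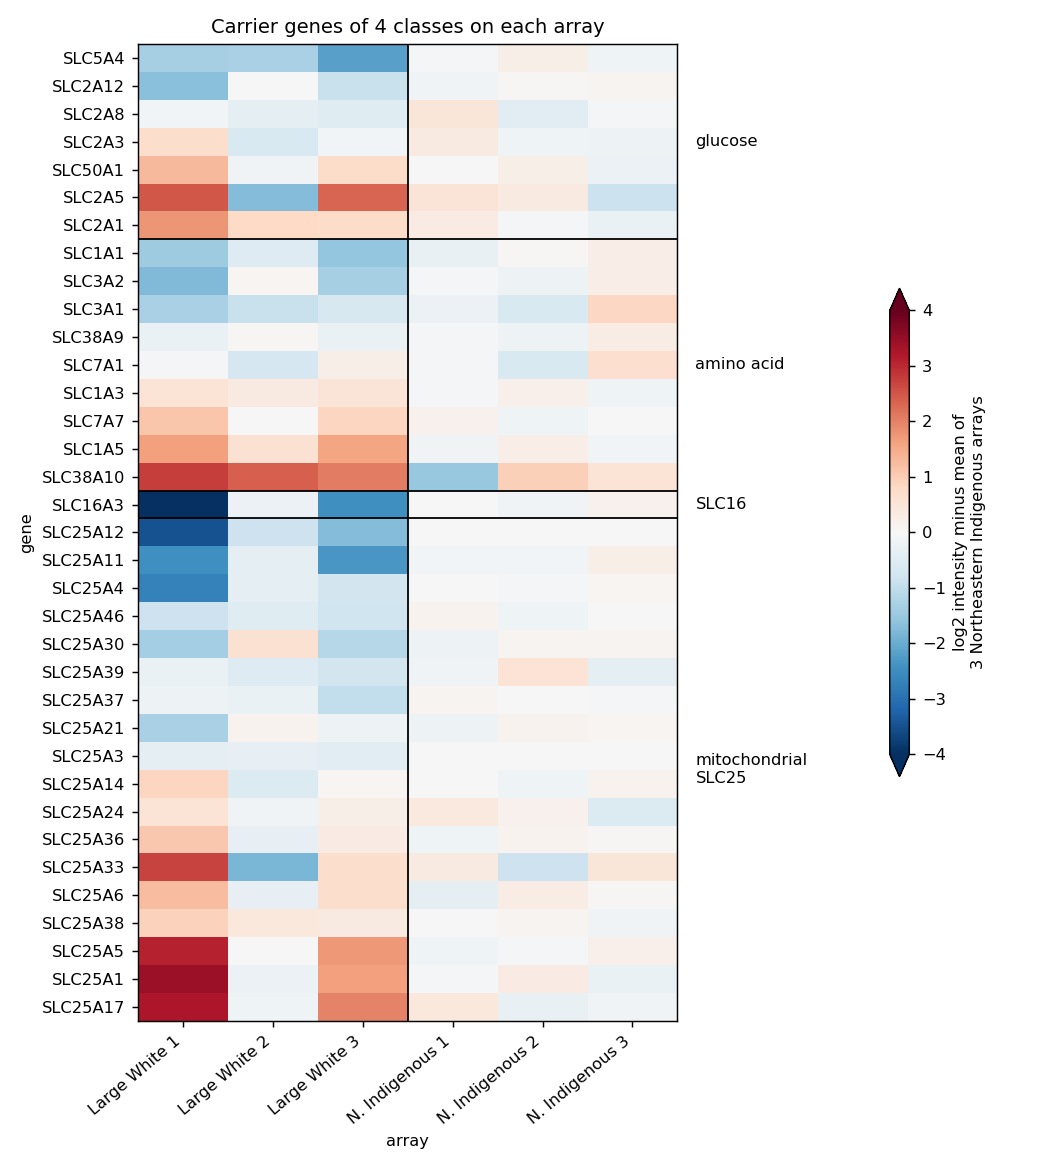
Rows are the 35 measured genes of the glucose, amino acid, SLC16 and mitochondrial SLC25 classes and columns the 6 arrays; colour is the log2 intensity minus the mean of the 3 Northeastern Indigenous arrays, and values beyond -4 or 4 take the end colour. Large White 1 and 3 carry most of the strong colour, SLC25A5, SLC25A1 and SLC25A17 in red and SLC16A3, SLC25A12 and SLC25A11 in blue, while Large White 2 is pale in all of these.

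The lactate carriers were represented by SLC16A3, the exporter typical of glycolytic fibres, since SLC16A1 and SLC16A7 had no probe set by the symbol rule. SLC16A3 (NCBI Gene 100158243) read 5.16, 9.73 and 7.49 on Large White replicates 1, 2 and 3 and 9.94, 9.81 and 10.12 on the Northeastern Indigenous arrays. The breeds did not overlap, but Large White replicate 2 was only 0.22 below the Northeastern Indigenous mean, while replicate 1 was 4.80 below. The difference of 2.50 ± 1.02 was the most positive of the 79 genes (SE; limma unadjusted p = 0.0433, adjusted p = 0.260) and was 1.35 without Large White replicate 1. The order of the Large White arrays, 2 then 3 then 1, was that of the sarcomere markers, though replicate 3 was the middle array in 65.2% of named genes. BSG, the chaperone that brings lactate carriers to the membrane, read 8.89, 8.38 and 8.82 against 9.12, 9.42 and 9.22 and differed by 0.56 ± 0.26 (SE; limma adjusted p = 0.290). BSG showed no overlap, and unlike for SLC16A3 the lowest Large White array was replicate 2. The other SLC16 member, SLC16A13, was just under the filter, at a mean of 5.81 where the filter stood at 5.85.

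Glucose and hexose carriers went both ways. Of 10 genes 7 were measured, 4 with a positive and 3 with a negative difference and a median of 0.01, and 0 were called. SLC5A4 and SLC2A1 had an unadjusted p under 0.05, or 28.6% of the 7 beside 20.8% of all named genes. SLC5A4, of the sodium-coupled glucose carrier family, read 6.74, 6.77 and 5.89 in Large White and 8.02, 8.31 and 7.90 in Northeastern Indigenous boars (NCBI Gene 397376). The gap between the breeds, more than 1 log2 unit at its narrowest, was larger than the range within either breed. Its difference was 1.61 ± 0.33 (SE; limma unadjusted p = 0.00170, adjusted p = 0.224), and against Large White replicate 2 alone it was 1.30. Leaving out any 1 array gave 1.32 to 1.76.

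SLC2A1, the basal glucose carrier of most cells, including endothelium and red cells, was dimmer in Northeastern Indigenous boars. It read 7.96, 7.00 and 6.93 against 6.52, 6.13 and 5.95, without overlap. The difference was -1.10 ± 0.38 (SE; limma adjusted p = 0.232), -0.77 without Large White replicate 1 and -0.80 against replicate 2. The endothelial marker list, 6 of 7 genes measured, lay at -0.49, -0.27 and -0.26 on Large White replicates 1, 2 and 3. Of its 6 genes 5 were higher in Northeastern Indigenous boars and 1, PECAM1, was lower (-0.46). The 3 erythroid markers measured, of 6, lay at -0.07, -0.17 and 1.01 on the same replicates. Whether the levels of any marker list bear on SLC2A1 was not tested.

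The other hexose carriers overlapped between breeds. SLC2A12, a second insulin-responsive carrier of muscle, read 7.77, 9.43 and 8.57 against 9.31, 9.50 and 9.58, and its difference of 0.87 ± 0.43 (SE) came to 0.46 without Large White replicate 1 and 0.03 against Large White replicate 2. The fructose carrier SLC2A5 was 10.84, 6.62 and 10.69 in Large White and 8.86, 8.71 and 7.50 in Northeastern Indigenous boars. Replicate 2 of Large White was the lowest of the 6 arrays for SLC2A5 and replicates 1 and 3 the highest, so the difference was -1.02 over all arrays, -0.29 without Large White replicate 1 and 1.74 against replicate 2. SLC2A3, the high-affinity carrier of nerve and white blood cells, differed by 0.01 ± 0.38 (SE; 95% interval -0.89 to 0.92), and its sign turned on the deposited scale. SLC2A8, an intracellular carrier, differed by 0.32 ± 0.32 and SLC50A1 by -0.63 ± 0.40 (SE). HK1, the hexokinase that traps glucose inside the cell, read 11.14, 7.88 and 9.94 against 7.97, 7.86 and 7.64, the same order over the Large White arrays as SLC25A5.

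Amino acid carriers held the most negative difference of the family. Of 17 genes 9 were measured, 5 positive and 4 negative, with a median of 0.16 and 0 called. The breeds did not overlap in 5 of the 9, 2 higher and 3 lower in Northeastern Indigenous boars, a share of 55.6% of few genes beside 28.3% of all named genes (15.9% higher and 12.3% lower). SLC38A10, SLC1A5 and SLC1A1 had an unadjusted p under 0.05, or 33.3% beside 20.8%. SLC38A10, which also holds the most negative difference, counts in both shares and passed the filter only through its Large White values.

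SLC1A5 takes up glutamine and other neutral amino acids in exchange and is high in growing cells. Its values (NCBI Gene 641348) were 9.94, 8.91 and 9.88 in Large White and 8.15, 8.56 and 8.18 in Northeastern Indigenous boars. Every Large White array was higher, replicates 1 and 3 by more than replicate 2. The difference was -1.28 ± 0.35 (SE; limma unadjusted p = 0.00770, adjusted p = 0.224), with -1.62 to -1.10 when any 1 array was left out and -0.62 against replicate 2. SLC38A10, of a family that carries glutamine and alanine, read 8.39, 8.04 and 7.69 against 4.13, 6.59 and 6.20. The Large White arrays stood close together here and the Northeastern Indigenous arrays were spread, replicate 1 lying well under the others. The difference was -2.40 ± 0.64 (SE; limma adjusted p = 0.224), -1.65 without Northeastern Indigenous replicate 1 and -2.40 against Large White replicate 2. The Northeastern Indigenous mean of SLC38A10, 5.64, lay under the filter of 5.85, so the gene passed only through its Large White values. The size of its difference thus rests on dim values in Northeastern Indigenous boars.

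Glutamate carriers of the SLC1 family did not share a direction. SLC1A1 read 6.10, 7.02 and 5.99 in Large White and 7.23, 7.58 and 7.80 in Northeastern Indigenous boars, and SLC1A3 read 6.43, 6.24 and 6.39 against 5.84, 6.09 and 5.71. In neither gene did the breeds overlap. SLC1A1 differed by 1.16 ± 0.37 (SE; limma adjusted p = 0.227) and SLC1A3 by -0.47 ± 0.32 (adjusted p = 0.399). The other 4 probe sets of SLC1A1 were below the filter. The brightest of these differed by -0.75, with overlap, and the rest by 1.07, 0.93 and 0.72.

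The heavy chains SLC3A1 and SLC3A2 pair with light chains of the SLC7 family to make exchangers. SLC3A2, the partner of the leucine exchanger, read 7.68, 9.54 and 8.13 in Large White and 9.38, 9.26 and 9.73 in Northeastern Indigenous boars. Large White replicates 1 and 3 were low and replicate 2 was inside the Northeastern Indigenous range, so the difference of 1.01 ± 0.49 (SE; limma adjusted p = 0.296) was 0.62 without Large White replicate 1 and -0.08 against replicate 2. SLC3A1 read 7.00, 7.43 and 7.68 against 8.08, 7.72 and 9.15 and differed by 0.95 ± 0.42 (SE), 0.53 without Northeastern Indigenous replicate 3, and its second probe set by 1.00 ± 0.39. Among light chains and relatives, SLC7A7, known from macrophages and gut, read 8.49, 7.37 and 8.25 against 7.55, 7.20 and 7.38. The brighter probe set of SLC7A7 was high on Large White replicates 1 and 3, where leukocyte, adipocyte, fibroblast and nerve markers were all high. SLC7A7 differed by -0.66 ± 0.34 over all arrays, -0.43 without Large White replicate 1 and 0.003 against replicate 2. On replicate 2 the leukocyte median was 0.74 and the adipocyte median -0.12. The part of any marker list in SLC7A7 was not tested. Its second probe set, under the filter, was highest on Large White replicate 2 (4.85, 6.50 and 4.69 on replicates 1, 2 and 3) and differed by 0.44, and the mean of both probe sets by -0.11. The arginine carrier SLC7A1 (0.16 ± 0.41) and the lysosomal arginine sensor SLC38A9 (0.16 ± 0.26) overlapped, with signs that turned on the deposited scale. SLC7A5 and SLC38A2 had no probe set by the symbol rule.

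**Figure D3:**
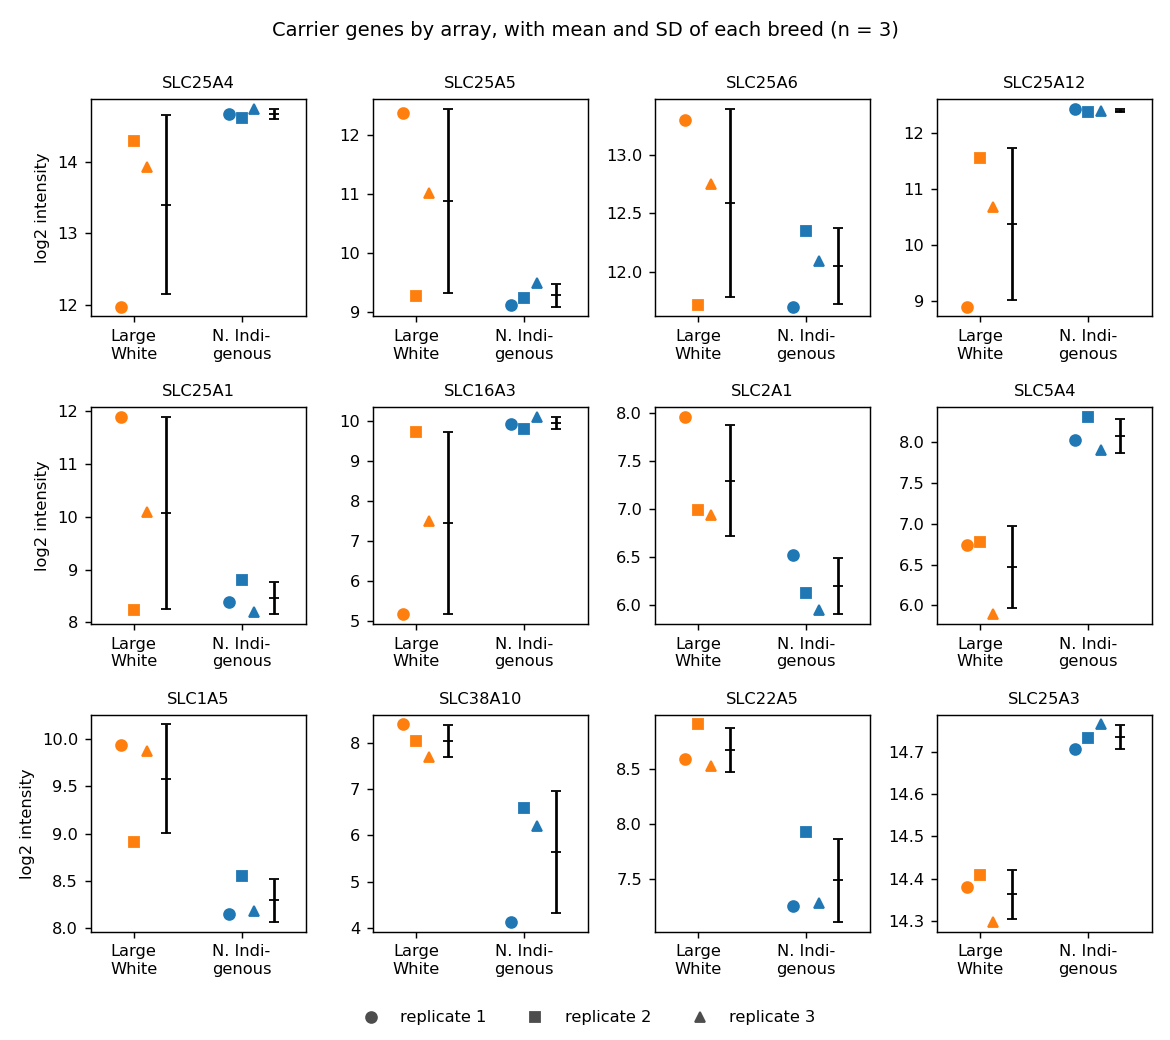
Each panel is 1 gene, with log2 intensity on the vertical axis (scaled per gene) and 1 marker per array, circles for replicate 1, squares for 2 and triangles for 3; bars are the mean and SD of each breed (n = 3). Panels of SLC25A5, SLC25A6 and SLC25A1 show the square of Large White among or under the Northeastern Indigenous arrays, while SLC5A4, SLC22A5, SLC1A5 and SLC38A10 keep all 3 Large White arrays on the same side.

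Other carriers of muscle metabolism included those for creatine and carnitine. SLC6A8, which loads fibres with creatine, read 6.74, 10.15 and 8.06 in Large White and 9.67, 9.66 and 9.60 in Northeastern Indigenous boars. Large White replicate 2 was the highest of all arrays and replicate 1 the lowest, so the breeds overlapped. The difference was 1.32 ± 0.78 (SE; limma adjusted p = 0.352) over all arrays, 0.54 without Large White replicate 1 and -0.51 against replicate 2. SLC22A5 brings in carnitine, which carries long fatty acids into mitochondria. It read 8.59, 8.90 and 8.53 against 7.26, 7.92 and 7.28 (NCBI Gene 100520422), all 3 Large White arrays above all 3 Northeastern Indigenous arrays. SLC22A5 differed by -1.19 ± 0.29 (SE; limma unadjusted p = 0.00417, adjusted p = 0.224), and by -1.42 against Large White replicate 2. The highest Large White array for SLC22A5 was replicate 2, and the part of marker levels in its difference was not tested. SLC22A3, a carrier of organic cations, read 8.25, 6.95 and 7.37 against 5.98, 6.88 and 6.07 and differed by -1.21 ± 0.44 (SE).

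Outside these classes the genes with the smallest unadjusted p on the positive side were SLC26A6, SLC22A6, SLC31A2, SLC35A4 and SLC30A3. SLC26A6, an anion exchanger, read 6.01, 7.23 and 6.81 against 7.96, 7.46 and 7.94 and differed by 1.10 ± 0.37 (SE). SLC31A2, a copper carrier, read 8.42, 8.89 and 8.71 against 9.98, 9.62 and 9.05 and differed by 0.88 ± 0.32, with its second probe set at 1.51 ± 0.49. Both genes were free of overlap between the breeds. SLC22A6, an organic anion carrier known from kidney, differed by 1.03 ± 0.36, SLC35A4 by 1.19 ± 0.46 and the zinc carrier SLC30A3 by 1.02 ± 0.48. The SLC30A3 value rested on its brighter probe set and on 1 array: the other, dimmer than the filter, differed by -0.46, the mean of both by 0.28, and without Large White replicate 1 it was 0.60. SLC35A4 and SLC30A3 came to 0.29 and -0.04 against Large White replicate 2. On the negative side, besides SLC22A5 and SLC22A3, were SLC9A3R1, a scaffold of membrane proteins, at 8.49, 8.09 and 8.51 in Large White against 7.12, 7.69 and 7.26. There too were differences of the sulphate carrier SLC26A11 at -0.68 ± 0.31 and the vitamin carrier SLC5A6 at -0.59 ± 0.30. The limma adjusted p of these 10 genes lay between 0.224 and 0.302.

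Carriers of the Golgi and endoplasmic reticulum overlapped between the breeds throughout. All 13 nucleotide sugar and sugar phosphate carriers were measured, with a median difference of 0.06, and the breeds overlapped in all 13. Over all named genes the breeds did not overlap in 28.3%. Among them SLC37A4, which takes glucose 6-phosphate into the endoplasmic reticulum, read 8.63, 11.96 and 10.86 in Large White and 11.53, 11.75 and 10.92 in Northeastern Indigenous boars, again lowest on Large White replicate 1. All 13 metal carriers were measured as well, with a median of 0.17 and 1 without overlap, SLC31A2 (7.69% beside the same 28.3%). SLC11A1, an iron and manganese carrier of macrophages, read 6.95, 5.29 and 5.99 against 6.36, 6.08 and 6.30 and differed by 0.17 ± 0.47 (SE). The classes of ion exchange (5 of 12 measured, median 0.79) and of lipid, carnitine, organic ion and vitamin carriers (7 of 18, median -0.26) were small.

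**Figure D4:**
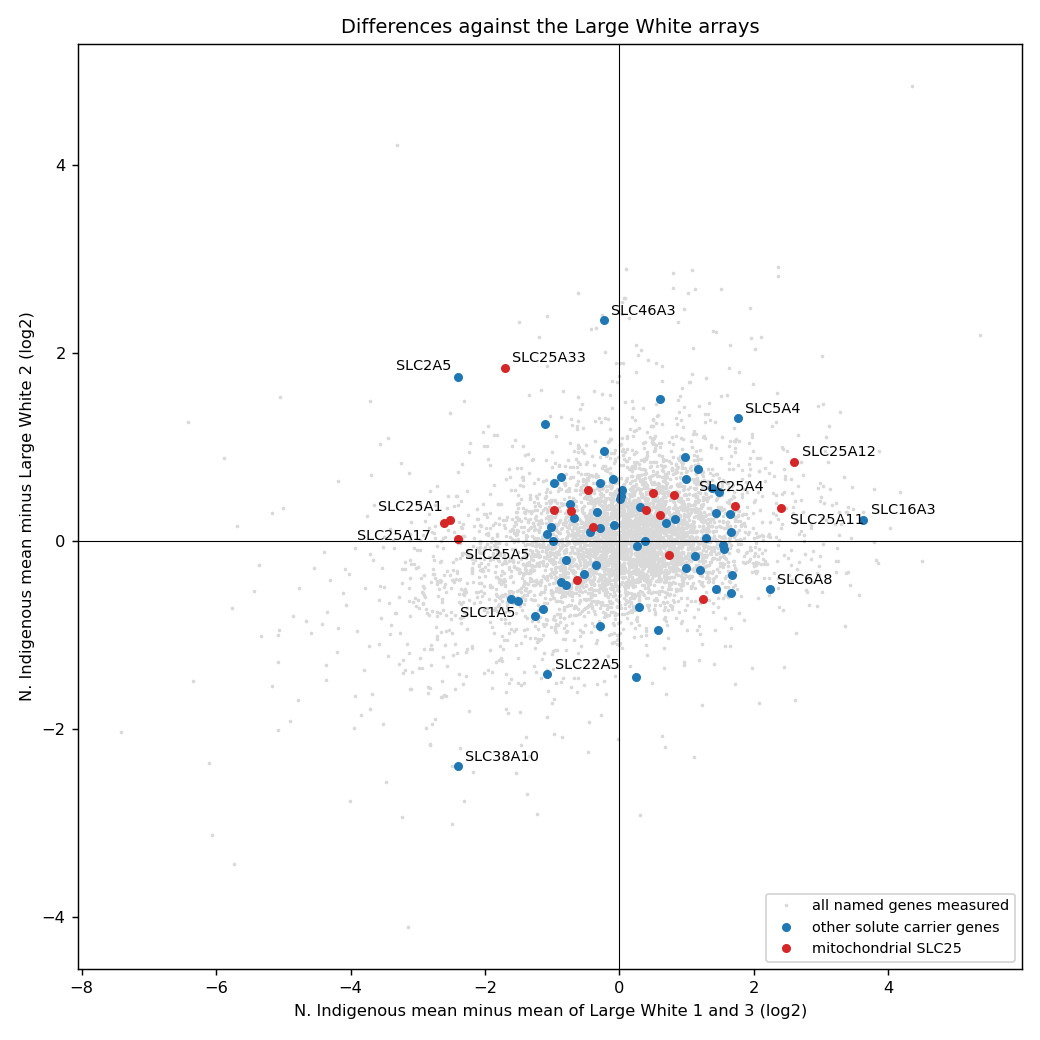
Each point is a gene, with its Northeastern Indigenous mean minus the mean of Large White replicates 1 and 3 on the horizontal axis and minus Large White replicate 2 on the vertical axis, both log2; the axes share the Northeastern Indigenous arrays. SLC16A3, SLC25A5, SLC25A1 and SLC25A17 lie far from 0 across and near 0 up, SLC5A4, SLC22A5 and SLC38A10 lie away from 0 on both, and SLC2A5 and SLC25A33 take opposite signs.

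The 39 carriers under the filter had mean log2 intensities from 1.31 to 5.81. Fitted without a filter, 4 of them had an unadjusted p under 0.05, SLC26A3 positive and SLC38A1, SLC46A2 and SLC28A1 negative, and 0 were called, with a smallest adjusted p of 0.266. In the same fit 133 of the 1327 named genes under the filter, or 10%, had such a p. The fatty acid carrier SLC27A1 read 4.56, 5.29 and 5.18 in Large White and 6.18, 5.29 and 7.00 in Northeastern Indigenous boars, the lowest Northeastern Indigenous value being barely above the highest Large White value. The sodium/calcium exchanger SLC8A1 was dimmer still, from 2.03 to 4.35. The genes just inside the filter were SLC39A2 (5.95), SLC9A5 (5.98) and SLC4A2 (6.01), and those just outside SLC16A13 (5.81), SLC25A48 (5.72) and SLC6A4 (5.67). In 16 genes a further probe set also passed, and 14 of these 18 probe sets had the sign of the brightest one. The exceptions were SLC44A2, SLC35C2, SLC46A3 and SLC38A9.

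Genes that work beside the carriers were followed as a list of 22, of which 17 had a probe set and 16 were measured. Their median difference was 0.34, with 10 positive, 6 negative, 0 called and 5 at an unadjusted p under 0.05. The list was thus at 31.2% beside 20.8% of all named genes at that p, and at 62.5% beside 54.7% for a positive difference. VDAC2, a channel that lets metabolites through the outer mitochondrial membrane, read 12.29, 12.93 and 12.33 in Large White and 13.36, 13.45 and 13.48 in Northeastern Indigenous boars and differed by 0.91 ± 0.22 (SE; limma adjusted p = 0.224). Like SLC25A12 it was higher on every Northeastern Indigenous array. PHGDH, which starts serine synthesis, read 8.25, 6.60 and 6.93 against 4.70, 4.69 and 5.42 and differed by -2.32 ± 0.52 (SE; limma adjusted p = 0.224), all 3 Large White arrays being higher. All 3 Northeastern Indigenous values of PHGDH lay under the filter of 5.85, so it passed only through its Large White values. It is among the 5 genes of the list at an unadjusted p under 0.05.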

How the data were processed

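Linear intensities of 1 value per probe set and array were deposited by the authors, with no detection calls used here; the labels name CEL and CHP files, and the software is not given in the sources used here. The 6 arrays had 2% trimmed means from 485.6 to 491.0 and medians from 94.1 to 120.1, so they shared a scale before deposit. Brightness is not read depth, and the number of arrays limits the precision.

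The 124 Affymetrix control probe sets were left out. Names came from the platform annotation (10069 probe sets with 1 symbol, 198 with several, 13732 unnamed), and 116 of the 118 carrier genes were found in RefSeq by gene identifier. No build is given, so no coordinates are printed. Intensities were taken as log2 and quantile normalized, and the 14399 probe sets whose mean log2 reached its 40th percentile were fitted by breed with limma 3.58.1 in R 4.3.3 (eBayes with an intensity trend, two-sided, 4 residual degrees of freedom, Benjamini-Hochberg adjusted p under 0.05). SEs and 95% intervals are limma's. The fit was tested on simulated data. No test was run on a list. Classes follow symbol families. Full statistics go to the 5 genes of smallest p in each of the 4 main classes, 5 in each direction elsewhere and a fixed list of 20; any gene of the 4 classes may be named, and SLC37A4 and SLC11A1 were named after their values were seen. The members, lists and rules were chosen with earlier results of these data known. Replicate numbers were not taken to pair the boars. The alternatives were other scalings, filters, an offset, other variance priors, the replicate block, the mean of all probe sets, and left-out arrays.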

Additional observations from a re-analysis of the deposited data

How the results depend on the processing

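No carrier was called under any of the other scalings, filters, the offset, the variance priors, the replicate block or averaged probe sets, where the smallest adjusted p of a carrier ran from 0.202 to 0.336. Over all probe sets the count of 0 became 1 with arrays centred on their medians and 1 with averaged probe sets. Leaving out 1 array gave 0 to 4421 of 14399 probe sets and 0 to 32 of 79 carriers called. At a limma unadjusted p under 0.05 it gave 1235 to 6571 probe sets and 10 to 46 carriers. The highest of each of these counts came from leaving out Large White replicate 2. The count of 17 became 9 under the 60th percentile filter, which tested 51 carriers, and 11 without Large White replicates 1 and 3. Quantile normalization moved the median of all probe sets from -0.01 to 0.10. The median of all carriers was -0.0017 without quantile normalization, 0.062 without a filter, 0.049 with each gene's probe sets averaged, and 0.022 to 0.235 with 1 array left out. For amino acid carriers it was -0.43 without a filter, -0.047 with probe sets averaged, -0.052 without Large White replicates 1 and 3, and -0.18 to 0.257 with 1 array left out. For SLC16 it was 0.54 without a filter and with averaged probe sets and 0.73 with the offset, where SLC16A13 entered, and 0.22 without Large White replicates 1 and 3. For SLC25 it was 0.42 with averaged probe sets and 0.32 without those arrays. Of 46 genes followed, 27 were called without Large White replicate 2 and 0 with another array left out or with other processing. The fit without that replicate called 4421 of 14399 probe sets and 32 of 79 carriers. Many of the 46 had been chosen for a small p in these data, so their share cannot be weighed against that of all probe sets. Signs turned for SLC2A3 (-0.17), SLC38A9 (-0.016) and SLC7A1 (-0.022) without quantile normalization, SLC2A3 (-0.025) with centring and SLC25A24 (0.049) with averaged probe sets. With 1 array left out they turned for SLC2A3 (-0.29 to 0.36), SLC7A1 (-0.18 to 0.47), SLC25A14 (-0.47 to 0.23), SLC25A24 (-0.40 to 0.068), SLC25A33 (-1.70 to 0.57). Without Large White replicates 1 and 3, where the lone Large White array is assumed to vary like the other breed, they turned for SLC50A1 0.15, SLC3A2 -0.082, SLC30A3 -0.043, SLC25A5 0.017, SLC25A6 0.33, SLC6A8 -0.51, SLC38A9 -0.052, SLC7A7 0.003, SLC2A5 1.74, SLC25A1 0.23, SLC25A14 0.54, SLC25A17 0.19, SLC25A21 -0.15, SLC25A24 0.14, SLC25A30 -0.62, SLC25A33 1.84, SLC25A36 0.32. The cause of these shifts was not tested. Same-numbered boars deviated from their breed means with correlations of -0.02, -0.16 and -0.11. With 3 boars per breed these values give no sign that the numbers pair them but cannot exclude it. With the replicate block 14 carriers had a limma unadjusted p under 0.05, 8 higher and 6 lower, and 0 were called. In that fit 2109 of 14399 probe sets had such a p.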
